A study of Mus musculus with 6 samples.

Results

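The TNF receptor superfamily genes described here are Tnfrsf1a, Tnfrsf1b, Tnfrsf11a, Tnfrsf11b, Fas, Cd40, Ltbr, Tnfrsf9, Tnfrsf21 and Tnfrsf26, 10 genes in all. Every probe set whose platform annotation gives exactly 1 symbol, that of a member, was taken, and the probe set with the highest mean over the 6 arrays represents its gene. This rule found 17 probe sets for 9 of the 10 genes among the 45037 probe sets of the series. Tnfrsf26 matched none and was not analysed here. A probe set was tested if it read above its array median on 3 or more of the 6 arrays, a filter that 13 of the 17 probe sets and 8 of the 10 genes passed, among 22497 probe sets and 10363 genes in all.

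Expression was measured on Mouse Genome 430 2.0 arrays in bone marrow macrophages of strain c57BL/6. All cells came from TNFR1-/-R2-/- mice, which lack both TNF receptors, and all carried a chimeric receptor delivered by retrovirus, with the outer domain of mouse TNFR1 and the membrane and inner domains of mouse RANK. Wild-type arrays (BM_wt, n = 3) come from cells whose RANK domain kept its IVVY motif, and mutant arrays (BM_mutant, n = 3) from cells in which that motif was inactivated by mutation. Carrier cells were selected as a population, not as a clone, by 3 days of puromycin at 2 ug/ml, and both groups were then kept for 24 hours with TNF (10 ng/ml) and M-CSF (44 ng/ml). Each array holds the pooled RNA of 6 dishes, and the 3 mutant and 3 wild-type arrays came from 3 independent assays, numbered alike in both groups. Whether each assay had its own mice is not stated in the labels. The question of the study was which macrophage genes depend on the IVVY motif.

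Receptors of this family bind trimeric ligands of the TNF family through cysteine-rich outer domains. Their inner parts either recruit TRAF adaptors, which lead to NF-kB and MAP kinases, or carry a death domain, which can lead to caspases. RANK, encoded by Tnfrsf11a, is the member through which macrophages become bone-resorbing osteoclasts, and osteoprotegerin, encoded by Tnfrsf11b, is the secreted decoy that keeps RANK ligand away from it. In macrophages the family also conveys signals from TNF, CD40 ligand, lymphotoxin and Fas ligand.

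The RefSeq promoter table of build GRCm38.p6 held 7 of the 10 members, with 8 windows of 300 bases, each from 250 bases before to 50 bases after a transcription start. The members it does not hold are Tnfrsf11b, Cd40 and Tnfrsf26. Both strands were searched for the NF-kB consensus motif and for the AP-1 site TGANTCA, since both factors act downstream of RANK. Over all 32851 windows of the table, 8.46% held the NF-kB motif and 7.81% the AP-1 site. The windows below are those of Fas, the member whose groups did not overlap, of Tnfrsf9, the member with matches to both motifs, and of Tnfrsf11a and Tnfrsf1a, the genes that lent their coding parts to the chimeric receptor. Capitals mark matches to either motif, and the sequences read 5′ to 3′ on the gene's own strand, which is the plus strand for all 4.
Fas, chr19:34290409-34290708: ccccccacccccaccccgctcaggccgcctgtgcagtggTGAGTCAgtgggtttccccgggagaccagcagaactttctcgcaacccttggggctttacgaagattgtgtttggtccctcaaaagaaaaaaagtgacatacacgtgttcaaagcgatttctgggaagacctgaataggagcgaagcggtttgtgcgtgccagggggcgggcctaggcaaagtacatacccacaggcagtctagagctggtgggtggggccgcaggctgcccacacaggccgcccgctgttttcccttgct
Tnfrsf9, second of its windows, chr4:150927749-150928048: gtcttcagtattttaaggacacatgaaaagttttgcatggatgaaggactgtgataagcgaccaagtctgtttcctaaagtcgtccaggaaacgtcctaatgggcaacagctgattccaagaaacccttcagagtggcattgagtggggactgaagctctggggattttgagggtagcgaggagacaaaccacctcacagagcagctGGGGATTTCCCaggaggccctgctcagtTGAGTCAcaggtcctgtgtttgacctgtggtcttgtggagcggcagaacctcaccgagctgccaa
Tnfrsf11a, chr1:105780473-105780772: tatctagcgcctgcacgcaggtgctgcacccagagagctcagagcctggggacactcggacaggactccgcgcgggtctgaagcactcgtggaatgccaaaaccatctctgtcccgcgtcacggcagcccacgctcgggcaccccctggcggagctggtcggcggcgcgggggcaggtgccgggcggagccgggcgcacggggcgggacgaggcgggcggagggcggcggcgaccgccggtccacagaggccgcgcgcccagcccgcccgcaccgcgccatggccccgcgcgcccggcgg
Tnfrsf1a, chr6:125349473-125349772: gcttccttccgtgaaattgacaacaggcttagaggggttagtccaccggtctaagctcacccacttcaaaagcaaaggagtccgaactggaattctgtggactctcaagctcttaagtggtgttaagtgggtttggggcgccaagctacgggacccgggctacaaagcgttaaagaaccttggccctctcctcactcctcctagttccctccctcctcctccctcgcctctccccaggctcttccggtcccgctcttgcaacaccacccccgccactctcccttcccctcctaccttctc
The Fas window holds 1 AP-1 site, starting 211 bases before the start site, and no NF-kB match. The Tnfrsf9 window holds 2 overlapping NF-kB matches, the first starting 43 bases before the start site, and 1 AP-1 site starting 15 bases before it. The other Tnfrsf9 window and those of Tnfrsf1a, Tnfrsf1b, Tnfrsf11a, Ltbr and Tnfrsf21 hold neither motif. A match is a run of letters and not a measured binding site.

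Across the family, 1 of the 8 members tested separated the groups. Over all genes tested, 1.95% were lower and 1.36% higher in the mutant without overlap. Fas was lower in the mutant on all arrays and in all pairs, while the other 7 tested members overlapped between the groups and differed in direction between the pairs. The test was limma on log2(intensity + 16), two-sided, with Benjamini-Hochberg adjustment over all 22497 probe sets, and differences are mutant minus wild type on that scale, which understates the change of dim genes. No probe set of any gene passed at an adjusted p under 0.05, so the share called was 0% of all genes tested and 0 of the 8 members. At an unadjusted p under 0.05 there was 1 member, Fas, against 1.14% of all genes by the same limma fit. On that log2 scale the mutant mean was lower for 4 and higher for 4 of the 8 members, the higher ones by at most 0.035. The linear means of Cd40 and Ltbr were slightly lower in the mutant (221 against 225 and 470 against 471). The median log2 difference of the 8 members was -0.032, beside 0.0088 over all genes tested. In bulk RNA of this kind, fewer cells that express a gene and less RNA per cell cannot be told apart.

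**Figure D1:**
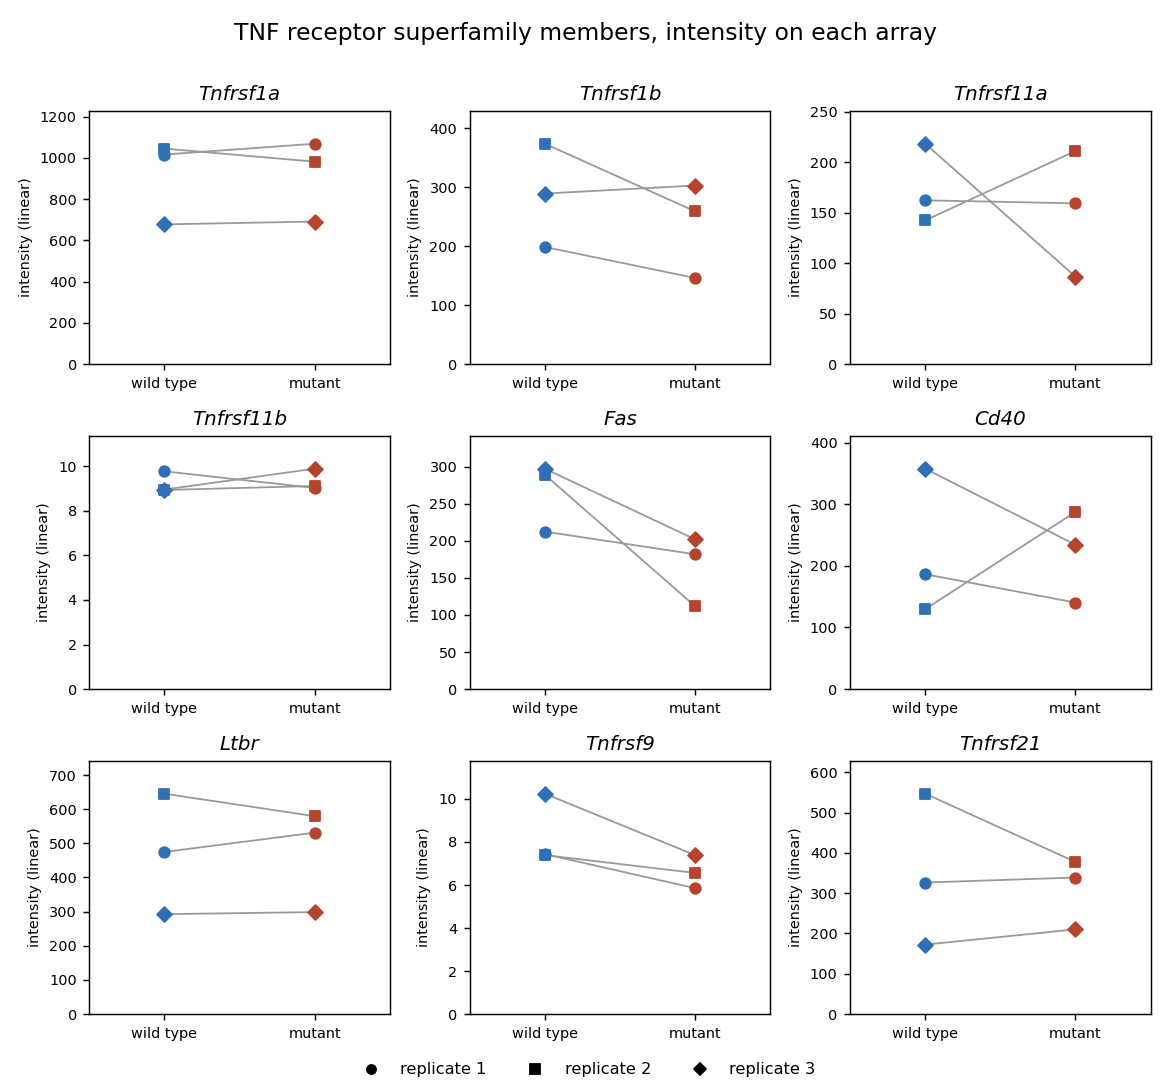
Intensity (linear, as deposited) of the representative probe set of each of the 9 members on the 6 arrays, wild type in blue and mutant in red, each panel on its own axis starting at 0; symbols give the replicate number and grey lines join same-numbered arrays. The lines of Fas all fall from wild type to mutant, with no overlap of the groups, those of Cd40 and Tnfrsf11a cross, and Tnfrsf11b and Tnfrsf9 stay near the array median of about 9.

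Fas encodes the death receptor CD95, whose inner death domain recruits FADD and caspase-8. Its intensity was 182, 112 and 202 on mutant arrays 1, 2 and 3, and 212, 289 and 297 on wild-type arrays 1, 2 and 3. Every mutant array was below every wild-type array, with the closest values, 202 and 212, coming from different assays. Of all genes tested, 1.95% were lower in the mutant without overlap. Mutant arrays averaged 165 ± 47.3 and wild-type arrays 266 ± 46.8 (SD, n = 3 each), and the groups differed 1.58-fold on the log2(intensity + 16) scale. The log2 difference was -0.66 ± 0.25 SE with a 95% interval of -1.30 to -0.026 (limma, unadjusted p = 0.0440, adjusted p = 0.99998). By pair it was -0.21 in assay 1, -1.25 in assay 2 and -0.52 in assay 3, so assay 2 gave the largest step and its mutant array the lowest value. Without mutant array 2 the difference was -0.43, and without both arrays of assay 2 it was -0.36. Fas has a single probe set with exactly 1 symbol on this array, and no further one was compared.

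Being lower in every pair was 1 of 8 members against 12.0% of all genes tested, a share close to that background, and higher in every pair 0 of 8 members against 14.5%. The count rests on which arrays are used. It was 3, with Tnfrsf11a and Cd40 added to Fas, without mutant array 2 or without wild-type array 2, and 2, with Tnfrsf1b added, without mutant array 3 or without wild-type array 3. Each of these leaves 2 pairs, where a shared direction is more easily met than with 3.

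The receptors from which the chimera was built showed no shared direction. Tnfrsf1a encodes TNF receptor 1, a death domain receptor that binds TNF on most cells. Its intensity was 1069, 982 and 691 on mutant arrays 1, 2 and 3 and 1016, 1045 and 678 on wild-type arrays 1, 2 and 3. The arrays of assay 3 were the lowest in both groups, and the members of each pair lay close together, with log2 differences of 0.071, -0.089 and 0.0285. The mean difference was 0.0037 with a 95% interval of -0.62 to 0.63. The mice lacked TNFR1, but the part of the gene this probe set reads was not known here, so its signal checks neither the deletion nor the chimera.

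Tnfrsf11a, which encodes RANK, was read by 2 probe sets that disagreed. The brighter read 159, 211 and 86.6 on mutant arrays 1, 2 and 3 and 162, 142 and 218 on wild-type arrays 1, 2 and 3. Mutant array 3 was the lowest and wild-type array 3 the highest, so the difference of assay 3 was -1.19, while that of assay 2 was 0.52 and that of assay 1 was -0.024. The other probe set read 156, 105 and 135 on the mutant arrays and 203.0, 97.9 and 132 on the wild-type arrays, with pair differences of -0.35, 0.081 and 0.028. The large step of assay 3 on the brighter probe set thus had no counterpart on the other. The mean differences were -0.23 (95% interval -1.07 to 0.61) and -0.080 (95% interval -0.79 to 0.63). Whether either probe set also reads the RANK part of the chimera was not known here.

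Tnfrsf1b encodes TNF receptor 2, which binds TNF, has no death domain and recruits TRAF2. Its brighter probe set read 146, 259 and 303 on mutant arrays 1, 2 and 3 and 198, 373 and 289 on wild-type arrays 1, 2 and 3. The mutant was lower in assays 1 and 2, by -0.41 and -0.50, and close to the wild type in assay 3, at 0.063. The dimmer probe set had the same signs, with -0.066, -0.28 and 0.061. The mean differences were -0.28 (95% interval -1.15 to 0.58) and -0.097 (95% interval -0.53 to 0.33), neither past the spread between arrays. The mice lacked TNF receptor 2 as well, and the part of the gene these probe sets read was not known here. Their signal thus neither checks the deletion nor shows that the receptor was made.

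**Figure D2:**
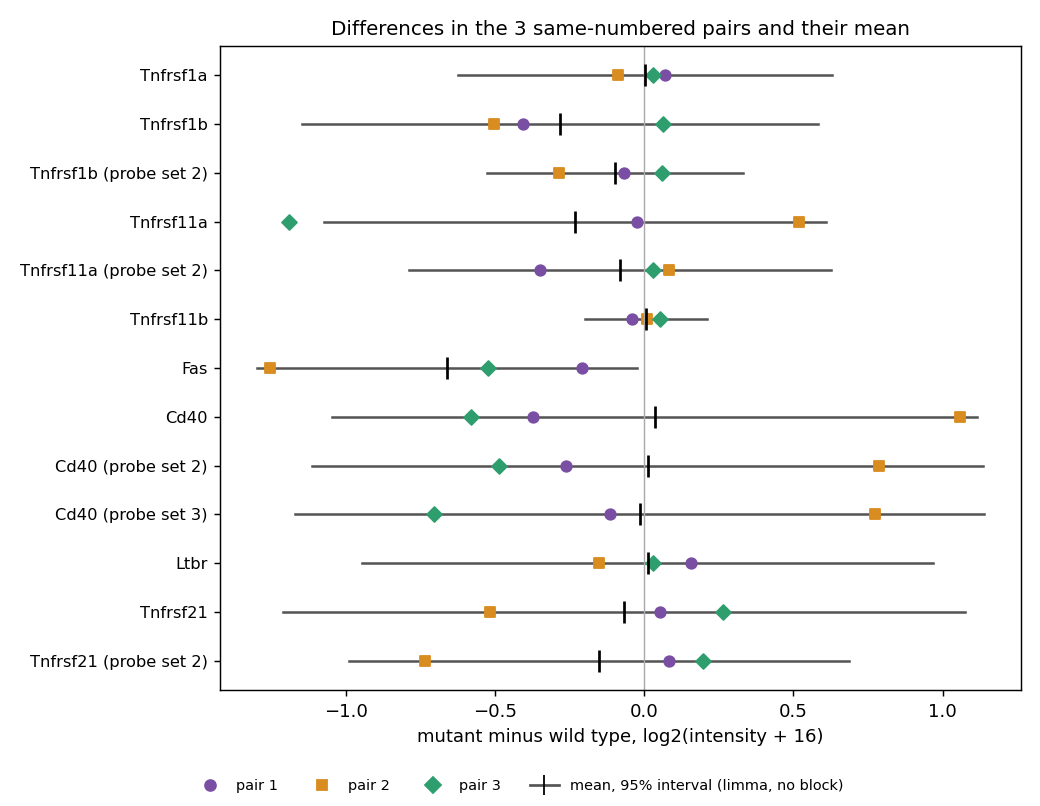
Difference between mutant and wild type on the log2(intensity + 16) scale for the 13 tested probe sets of 8 members; coloured symbols are the 3 same-numbered pairs, the black tick is their mean and the grey line its 95% interval from limma without a block. The interval of Fas lies below 0 from -1.30 to -0.026 before adjustment, and all other intervals include 0.

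The receptors for lymphotoxin and CD40 ligand went different ways between the assays. Cd40 is the receptor through which T cells activate macrophages, B cells and dendritic cells. Its brightest probe set read 140, 287 and 234 on mutant arrays 1, 2 and 3 and 186, 130 and 358 on wild-type arrays 1, 2 and 3. In assay 2 the mutant was higher, by 1.06, while in assays 1 and 3 it was lower, by -0.37 and -0.58. All 3 probe sets of Cd40 showed this order, with assay 2 at 0.79 and 0.77 and assay 3 at -0.49 and -0.70 on the others. Their mean differences lay between -0.015 and 0.035, and the 95% interval of the brightest was -1.04 to 1.12.

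Ltbr encodes the lymphotoxin beta receptor, which drives the alternative NF-kB pathway. It read 531, 580 and 299 on the mutant arrays and 475, 645 and 293 on the wild-type arrays, in the order of the assays. Both arrays of assay 3 were well below the other 4, and the pairs differed by 0.16, -0.15 and 0.028. The mean difference was 0.012 with a 95% interval of -0.95 to 0.97.

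Tnfrsf21 encodes death receptor 6. Its brighter probe set read 339, 378 and 210 on the mutant arrays and 326, 547 and 172 on the wild-type arrays, in the order of the assays. Wild-type array 2 stood highest, and the pairs differed by 0.052, -0.52 and 0.26. The second probe set had the same signs, with 0.084, -0.73 and 0.20. The mean differences were -0.067 and -0.15, and the 95% interval of the brighter was -1.21 to 1.08.

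Osteoprotegerin and 4-1BB were at or near background. The brighter Tnfrsf11b probe set read 8.93 to 9.88 over all 6 arrays and the other 4.41 to 4.51, where the array medians were 8.86 to 9.38. Tnfrsf11b passed the filter through the first of these, which lay just above the median of its array on 5 arrays, and its difference of 0.0070 is one between background values. Tnfrsf9 encodes 4-1BB, a costimulatory receptor of activated T cells. Its brightest probe set read 5.85, 6.56 and 7.39 on mutant arrays 1, 2 and 3 and 7.43, 7.39 and 10.2 on wild-type arrays 1, 2 and 3, above the array median on wild-type array 3 alone. The mutant value was the lower in each pair, but the groups overlapped and all values lie near the background. The other 2 Tnfrsf9 probe sets read 3.38 to 5.32.

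For most members more of the sum of squares lay between assays than between groups. With 3 assays but fewer groups, the share between assays tends to be the larger even without an effect. For Tnfrsf1a 98.5% of the sum of squares over the 6 arrays lay between assays, for Ltbr 97.8%, for Tnfrsf21 89.5% and for Tnfrsf1b 79.4%, beside a median of 77.3% over all genes tested. Fas was the other way round, with 15.7% between assays and 58.6% between groups, where the median gene had 4.52% between groups. For the brightest probe set of Cd40 44.6% lay between assays and 0.131% between groups, and its others had 70.2% and 66.3% between assays. For the brighter probe set of Tnfrsf11a the shares were 9.33% and 8.67%, so most of its spread belonged to neither. The dimmer Tnfrsf11a probe set had 89.1% between assays and 1.62% between groups. The dimmer ones of Tnfrsf21 and Tnfrsf1b had 66.8% and 77.5% between assays. In assay 3 the level was lower than the mean of assays 1 and 2 for Tnfrsf21, by -0.97 on the log2 scale, for Ltbr by -0.87 and for Tnfrsf1a by -0.58, and higher for Cd40 by 0.66, for Fas by 0.35 and for Tnfrsf1b by 0.34. The median absolute shift of all genes was 0.30. The summed intensity of the 10 stromal cell markers was 3393 to 4695 in assay 3 against 72.2 to 169 on the other 4 arrays. Of the 10, 6 (Col1a1, Col1a2, Col3a1, Sparc, Pdgfrb and Postn) were higher on both arrays of assay 3 than on any other array. Dcn and Pdgfra were raised on wild-type array 3 alone, at 62.9 and 18.6, and Lum and Thy1 read at most 5.11 and 4.59 on any array. Their part in the shifts of the receptors was not tested. Tnfrsf11b, which stromal cells and osteoblasts are known to make, read 9.88 on mutant array 3, 8.95 on wild-type array 3 and 8.93 to 9.77 elsewhere. Mutant array 3 was thus the highest of the 6 by a small margin, among background values. The dimmer Tnfrsf11b probe set did not have this order, with 4.44 on mutant array 3 and 4.48 on mutant array 1.

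**Figure D3:**
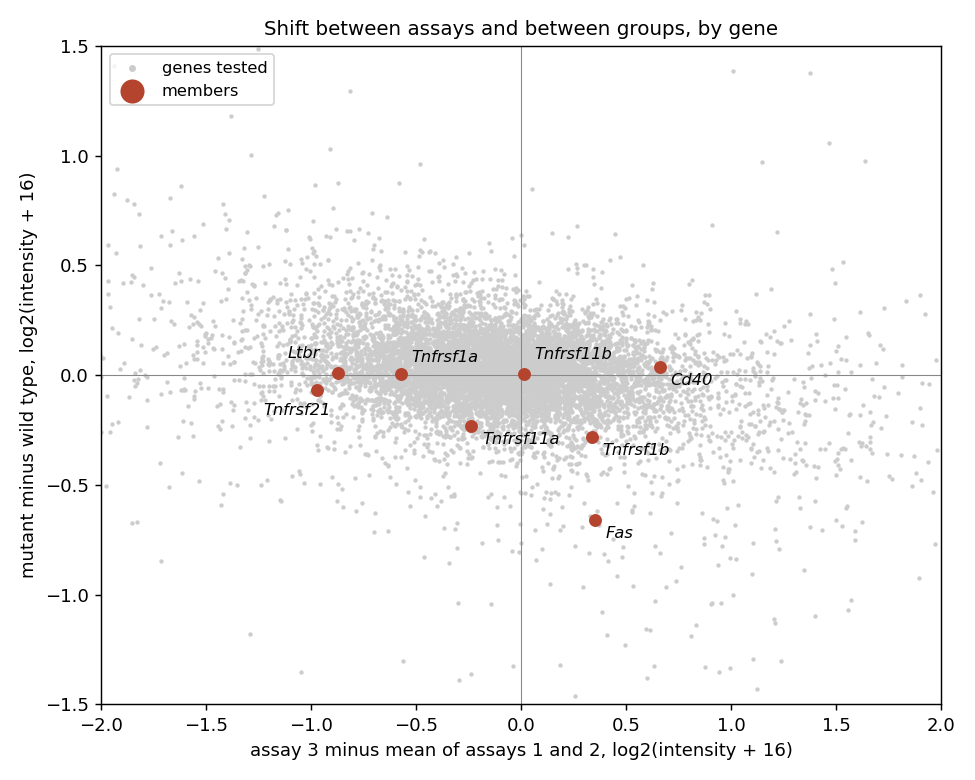
Each point is a gene, with its shift between assay 3 and the mean of assays 1 and 2 on the x axis and its difference between mutant and wild type on the y axis, both in log2(intensity + 16); grey points are the 10363 genes tested and red points the 8 members. The members spread along the x axis from Tnfrsf21 at -0.97 to Cd40 at 0.66, Fas is the lowest of the members on the y axis at -0.66, and 261 genes lie outside the axis limits.

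Other markers were read on the same arrays to check the label. All 10 macrophage markers were above the array median on all arrays, with a summed intensity of 192620 to 211064 in the mutant and 193760 to 204995 in the wild type. Markers of B cells (4 of 5 matched), T cells (5 of 5), adipocytes (2 of 4) and osteoblasts (3 of 5) summed to at most 54.7 on any array. Cd4 read 29.2 on mutant array 3, 26.6 on wild-type array 3, 19.5 on wild-type array 2 and at most 5.46 elsewhere. Ms4a1 read 9.17 to 11.7, above the array median on all arrays. The other markers of these cell types were at or below the median on all arrays. Of the 4 dendritic cell markers Flt3, Zbtb46 and Xcr1 were below the median on all arrays, and Ccr7, named after its values were seen, read 103 on wild-type array 3, where Cd40 was also highest, and at most 6.50 elsewhere. Neutrophil markers summed to 157 to 706, most of it from S100a8 (128 to 677), and the other 6 were at or below the median on all arrays. Endothelial markers summed to 54.3 to 185, most of it from Kdr (39.5 to 171), and the other 3 were at or below the median on all arrays. The 8 osteoclast markers summed to 1117 to 1878 in the mutant and 8525 to 26816 in the wild type, and their part in the lower Fas values was not tested. The 75th percentile of intensity was 160 to 164 on all arrays, and 3 arrays per group limit the precision.

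The remaining receptors of the superfamily, 18 genes, were mostly below the filter, and 6 were tested. None of the 6 passed by limma, with 0 at an unadjusted p under 0.05, and the median difference was 0.093. Tnfrsf12a, the receptor of the TNF-like ligand TWEAK, was higher on every mutant array than on any wild-type array, with 57.3, 35.96 and 33.1 against 27.5, 31.1 and 31.8. Its difference was 0.31 ± 0.18 SE, and 1.36% of all genes tested were higher in the mutant without overlap. Tnfrsf22, a decoy receptor for TRAIL in mice, differed by 0.22 ± 0.22 SE. Tnfrsf13b, which encodes the BAFF and APRIL receptor TACI, differed by 0.17 ± 0.21 SE, and Tnfrsf14, the receptor of LIGHT, by -0.25 ± 0.33.

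Of 18 ligands 14 had a probe set with exactly 1 symbol and 5 were tested, 3 with a lower and 2 with a higher mean. Tnfsf12, Tnfsf13, Tnfsf15 and Tnfsf18 had no such probe set, and probe sets with several symbols were not used. None passed by limma, and 0 had an unadjusted p under 0.05. Tnfsf4, the OX40 ligand, was lower on every mutant array, at 9.33, 10.2 and 9.19 against 14.5, 17.6 and 10.6, close to background throughout. Such a lower value without overlap was seen for 1.95% of all genes tested. Tnfsf9, the ligand of 4-1BB, read 120, 121 and 8.91 on the mutant arrays and 97.4, 59.2 and 22.9 on the wild-type arrays, low in assay 3 in both groups. Ltb, the lymphotoxin chain that binds the lymphotoxin beta receptor, differed by -0.042 ± 0.086 SE, and Tnfsf13b, which encodes BAFF, by -0.063 ± 0.16. Tnf itself, chosen after its values were seen because TNF was the stimulus, read 103, 204 and 22.7 on the mutant arrays and 76.2, 79.6 and 74.6 on the wild-type arrays. The mutant values of Tnf enclosed the wild-type values, and the pairs differed by 0.37, 1.20 and -1.23. Fasl and Tnfsf11, the ligands of Fas and RANK, read at most 4.83 and 5.93 on any array, below the array medians.

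Among the signal carriers behind the receptors, Traf1 and Traf2 were lower on every mutant array than on any wild-type array. Lower in the mutant without overlap were 1.95% of all genes tested. Of 28 adaptors, kinases and ubiquitin enzymes 24 were tested, and 12 had a lower and 12 a higher mean, with a median of -0.066. Ripk1, Traf3 and Chuk had no probe set with exactly 1 symbol, and Traf4 was below the filter. By limma 0 passed and 2 had an unadjusted p under 0.05, against 1.14% of all genes tested. With the replicate number as a block, limma gave 4 of the 24 an unadjusted p under 0.05, against 610 of 10363 genes. Traf1, an adaptor that binds TNF receptor 2, CD40 and 4-1BB and is itself induced by NF-kB, read 47.7, 23.7 and 61.0 on mutant arrays 1, 2 and 3 and 215, 227 and 815 on wild-type arrays 1, 2 and 3. The difference was -2.64 ± 0.58 SE. Traf2, the adaptor shared by TNF receptors 1 and 2, read 190, 184 and 212 against 259, 277 and 294, with a difference of -0.47 ± 0.10 SE. Birc2, the ubiquitin ligase cIAP1 bound by TRAF2, was lower in each pair by -0.85, -0.67 and -0.81 while its groups overlapped, and Cyld, a deubiquitinase, differed by -0.20 ± 0.12 SE. In every pair 6 of the 24 were lower (Traf1, Traf2, Birc2, Birc3, Cflar and Cyld) and 2 higher (Tradd and Sharpin), against 12.0% and 14.5% of all genes tested. The genes beyond Traf1, Traf2, Birc2 and Cyld were named after their values were seen. Among the partners of Fas, the differences were 0.14 ± 0.25 SE for Fadd, which bridges Fas to its caspase, -0.17 ± 0.14 for Casp8 and -0.15 ± 0.19 for Cflar, which restrains that caspase. These 3 too were picked with their values in view.

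**Figure D4:**
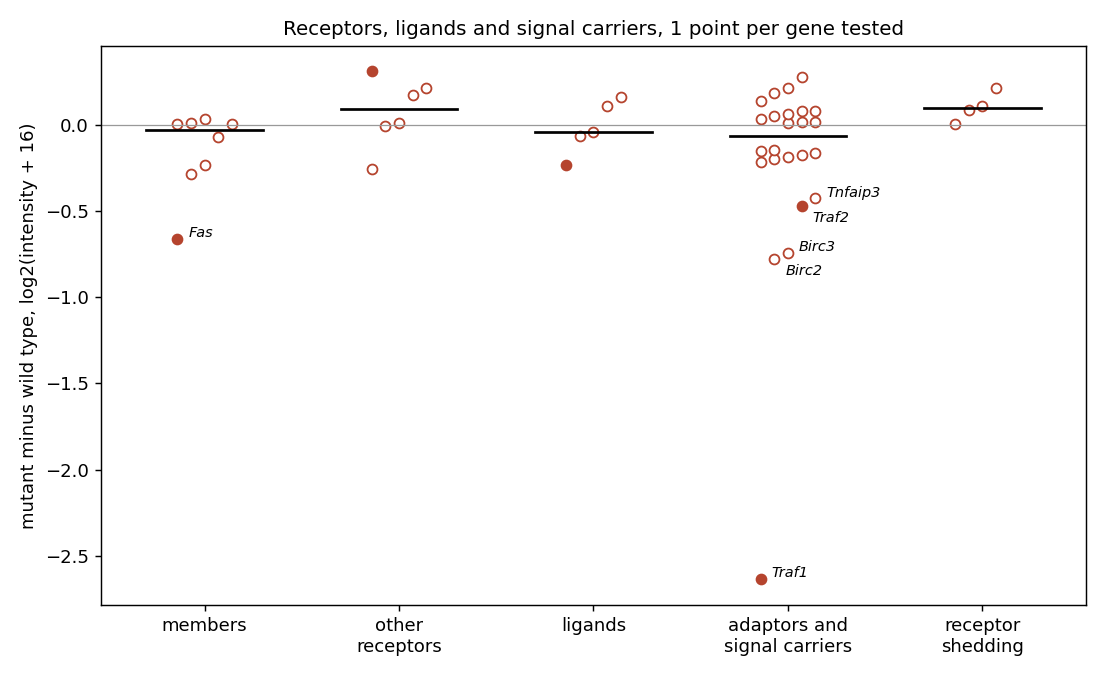
Difference between mutant and wild type, log2(intensity + 16), for the genes tested in the 5 lists, 1 point per gene; filled points have no overlap between the groups and black bars are the medians. Fas is the lowest of the 8 members, Traf1 at -2.64 is the lowest of all, and the list medians lie between -0.066 and 0.098.

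Proteases that release these receptors from the cell surface, and their partners, overlapped between the groups for all 4 genes tested. Adam17, which sheds TNF and both TNF receptors, read 2995, 3030 and 2849 on the mutant arrays and 3256, 3128 and 2498 on the wild-type arrays. The difference of Adam17 was 0.0077 ± 0.13 SE, and those of Adam10, Rhbdf1 and Rhbdf2 were 0.11, 0.22 and 0.087. Of the 4 genes tested, 0 passed by limma and 0 had an unadjusted p under 0.05.

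The genes whose log2 values ran most like those of Fas over the 6 arrays were Setmar, Smox and Csnk2a2, with Pearson correlations of 0.989, 0.981 and 0.977, among 33 genes above 0.9 of 10362 compared. They read lower in the mutant by -0.27, -0.41 and -0.31, a direction set by picking them for likeness to Fas on these same arrays. For the brighter probe set of Tnfrsf11a the closest were Pigk, Clptm1l and Gar1, at 0.979, 0.958 and 0.956, among 15 genes above 0.9. The points share assays and are few, and these values describe the 6 arrays only.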

How the data were processed

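Each probe set has 1 deposited intensity per array, on a linear scale. GCOS and GCRMA are named, per the submitters' processing notes, without version or order of use. GCRMA corrects the background and makes arrays alike in distribution, which presses dim probe sets towards a floor and can remove a shift of all genes. The table has 45101 probe sets, less 64 controls that were not used, and 34945 carried 1 symbol. Symbols come from the platform annotation, and 34741 of these were found in the RefSeq table by gene identifier.

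Values were taken as log2(intensity + 16) without further normalization, filtered at the 50th percentile and fitted in R 4.3.3 by the lmFit and eBayes functions of limma 3.58.1, with group as the only term. SE and intervals come from that fit, which counts the spread between assays as error. With the replicate number as a block, the 95% intervals narrowed for Tnfrsf1a (-0.22 to 0.23), Ltbr (-0.26 to 0.28), Tnfrsf1b, Cd40 and Tnfrsf21. They widened for Tnfrsf11a (-1.25 to 0.79), Tnfrsf11b and Fas (-1.31 to -0.014). Same-numbered arrays deviated together from their group means (correlations of 0.797, 0.671 and 0.845, against -0.618 to -0.0138 for other pairs). The labels describe independent assays, so pair differences were taken between arrays of the same number. The main fit did not use this pairing, and the fit with the block did. Named beside the members were up to 4 genes with the smallest p of each list, and the 3 genes most correlated with Fas and with Tnfrsf11a. Members, lists and rules were chosen with earlier results of these data known. Alternatives were the pseudocount, the filter, quantile and 75th percentile scaling, the block, each array or assay left out, and the mean of a gene's probe sets.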

Additional observations from a re-analysis of the deposited data

How the results depend on the processing

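Fas kept its direction under all 17 alternatives, between -0.89 and -0.36 on the log2 scale, but most of these could not have turned it. Its groups did not overlap, so another pseudocount, or leaving out an array or assay, cannot change the sign. The filter, the block and the mean of its single probe set leave the Fas difference as it is. Only quantile or percentile scaling could have turned the sign, and each gave -0.66. Across all 17 alternatives, 0 probe sets and 0 members were called. With the replicate number as a block, limma called 0 of 22497 probe sets (smallest adjusted p = 0.0792, 1189 with an unadjusted p under 0.05), the smallest adjusted p of a member was 0.859, and no call changed. With 1 array left out, the difference ranged from -0.19 to 0.19 for Tnfrsf1a, -0.51 to 0.0084 for Tnfrsf1b, -0.49 to 0.088 for Tnfrsf11a, -0.0084 to 0.023 for Tnfrsf11b, -0.27 to 0.41 for Cd40, -0.28 to 0.30 for Ltbr and -0.47 to 0.32 for Tnfrsf21, so the sign of these 7 is not settled. With an assay left out, chosen after seeing the data, the sign turned without assay 1 for Tnfrsf1a (-0.030) and Ltbr (-0.061), without assay 2 for Cd40 (-0.48) and Tnfrsf21 (0.16), and without assay 3 for Tnfrsf1a (-0.0087), Tnfrsf11a (0.25) and Tnfrsf11b (-0.016). The number of members lower in every pair was 2 without the filter, where Tnfrsf9 is added, 3 without assay 2, 2 without assay 3, and 1 to 3 with 1 array left out. Fewer pairs make that count easier to reach. No member changed sign with another pseudocount, filter or scaling, or with the mean of a gene's probe sets. Tnfrsf9 and Tnfrsf11b, near background, carry no fold.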

Other observations

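Mutant array 1 stood apart for a group of small receptors. Tnfrsf22, a decoy receptor for TRAIL in mice, read 33.8 there and 13.8 to 16.02 on the other 5 arrays, and Tnfrsf23, another such decoy, read 11.7 there and 6.31 to 6.47 elsewhere, below the array medians. Tnfrsf12a read 57.3 on the same array and at most 35.96 on the others. Ngfr, the low-affinity nerve growth factor receptor, read 15.0 on wild-type array 2 and 6.22 to 6.45 on the other arrays. These genes were picked after their values were seen.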
